A study of Mus musculus with 16 samples.

Results

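Of the 9 genes of the unfolded protein response and the integrated stress response followed here, 3 were called changed in wild-type bone marrow-derived dendritic cells (BMDCs) after stimulation with c-di-GMP, where 10.5% of all genes tested were called higher and 9.96% lower. Ddit3 rose from 14.7 to 62.4 FPKM and Trib3 from 2.77 to 5.78 FPKM, while Herpud1 fell from 62.4 to 21.6 FPKM. The Trib3 rise lay near the 2-fold limit, and its call was lost with a pseudocount of 1 FPKM. Hspa5, Atf4, Xbp1, Ern1, Dnajb9 and Chac1 were not called changed. No member was called changed by c-di-GMP in Tmem173-/- BMDCs, where 0.046% of all genes tested were called higher and 0.0092% lower. Ddit3 was 13.7 FPKM untreated and 10.7 FPKM treated there. In Irf1-/- BMDCs the 3 genes called in the wild type were called in the same directions, where 9.67% of all genes were called higher and 7.81% lower. In Irf3/7-/- BMDCs these 3 were called too, where 10.2% of all genes were called higher and 7.68% lower. Chac1 rose there as well, from 1.39 to 3.54 FPKM, a call that was lost with a pseudocount of 1 FPKM or a minimum of 5 FPKM.

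The members were chosen by name: Ern1, Xbp1, Hspa5, Dnajb9, Herpud1, Atf4, Ddit3, Trib3 and Chac1, which are 9 of the 23356 genes of the deposited table. RNA-seq was performed on BMDCs grown from C57BL/6 bone marrow with GM-CSF and IL-4. The genotypes were WT, Tmem173-/- (no STING, the receptor of cyclic dinucleotides), Irf1-/- and Irf3/7-/- (a double knockout), which lack interferon regulatory transcription factors. The knockouts were whole-animal, so every cell of a culture carried the deletion. Each genotype was left untreated (NT) or given c-di-GMP (CDG), a bacterial second messenger that binds STING, for 18 h. The labels give 25 μg/ml as the dose, and the study's legends for these data give a higher one. There were 16 samples by the labels, with 2 in every one of the 8 conditions. The authors combined the replicates of a condition into 1 FPKM (fragments per kilobase of transcript, corrected for the size of the library), a level already divided by transcript length, with a lower and an upper bound. There is therefore no spread between replicates, no p-value, and no reading of depth per sample, and the authors' interval is the only error given below.

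The endoplasmic reticulum (ER) folds secreted and membrane proteins, and unfolded protein there is sensed by IRE1 (encoded by Ern1), PERK and ATF6. IRE1 splices Xbp1 mRNA into the form that encodes an active transcription factor, and XBP1 and ATF6 drive genes of chaperones and of ER-associated degradation. PERK is also one of the kinases of the integrated stress response, which phosphorylate the initiation factor eIF2, lower general translation and increase translation of ATF4. ATF4 then drives Ddit3 (CHOP), Trib3 and Chac1, among others. In dendritic cells, IRE1 and XBP1 are known for roles in survival and antigen presentation. FPKM per gene does not measure Xbp1 splicing, eIF2 phosphorylation or protein.

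The promoters of members that carry an element of these pathways are printed to show where such an element lies in each. They come from RefSeq (GRCm38.p6), in which all 9 members were found, and each runs to the base before the annotated transcription start, 5′ to 3′. Capitals mark the matched elements. Hspa5 (chr2:34771970-34772089, + strand) holds the ER stress response element (ERSE), which is CCAAT, 9 free bases and CCACG, at -65 to -47 from its start. Herpud1 (chr8:94386309-94386428, + strand) holds the shorter ERSE-II, which is ATTGG, 1 free base and CCACG, at -52 to -42, and a C/EBP-ATF element at -112 to -105. The deposited table starts Herpud1 further downstream, at 94386500, and the positions given here count from the RefSeq start. Chac1 (chr2:119351042-119351241, + strand) holds a C/EBP-ATF element at -193 to -186.
Hspa5: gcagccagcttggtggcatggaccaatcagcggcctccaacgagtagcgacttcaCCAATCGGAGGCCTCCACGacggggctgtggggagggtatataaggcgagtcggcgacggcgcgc
Herpud1: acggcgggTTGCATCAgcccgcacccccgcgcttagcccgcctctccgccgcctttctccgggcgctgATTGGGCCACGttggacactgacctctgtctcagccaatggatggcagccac
Chac1: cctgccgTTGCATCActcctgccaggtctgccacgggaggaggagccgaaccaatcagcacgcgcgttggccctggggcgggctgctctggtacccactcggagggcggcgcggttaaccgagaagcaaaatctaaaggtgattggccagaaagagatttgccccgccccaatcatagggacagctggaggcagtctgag

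The C/EBP-ATF element, at which ATF4 and CHOP are known to bind with C/EBP partners, was searched as TGATG, 1 free base and AA. It stands on the reverse strand in both promoters printed above. Trib3 has a match at 14 to 21 bases after its start. Windows of 300 bases (250 before and 50 after the start) and both strands were searched for 32851 annotated starts. ERSE was in 0.119% of them, ERSE-II in 0.0365% and the C/EBP-ATF element in 3.97%. The core of the unfolded protein response element, TGACGTGG, was in 0.676% of windows, and an interferon regulatory factor element, GAAA, 2 free bases and GAA, in 8.56%. Neither of these was found in the window of any member. The ERSE and ERSE-II share their CCACG part, and the reverse strand of the response element core begins with the same 5 letters. A match is a description of letters, and these data hold no binding.

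The labels were checked with the targeted genes. Tmem173 was 8.97 and 7.49 FPKM before and after treatment in Tmem173-/- BMDCs, where wild-type BMDCs had 103 and 118 FPKM. Irf1 was 25.9 and 116 FPKM in Irf1-/- BMDCs, and 149 and 245 FPKM in the wild type. The interval of treated Irf1-/- BMDCs (82.8 to 149 FPKM) lay below that of treated wild-type BMDCs (176 to 314 FPKM). It overlapped that of untreated wild-type BMDCs (113 to 185 FPKM), so this value alone does not check the label of the treated sample. Irf1 was also 24.1 and 23.3 FPKM in Tmem173-/- BMDCs, so a low value alone does not single out the Irf1-/- label. Irf7 was 1.07 and 4.97 FPKM in Irf3/7-/- BMDCs, and 15.2 and 687 FPKM in the wild type. Irf3 was 7.74 FPKM before and 20.2 FPKM after treatment of Irf3/7-/- BMDCs, beside 19.9 and 15.8 FPKM in the wild type, so it does not check the label of the treated sample. These are whole-gene values, in which exons outside a deleted part count too. All 10 dendritic cell markers were at or above 1 FPKM in all 8 conditions, with sums from 5030 to 9095 FPKM. Cd74 alone was 3336 to 4983 FPKM. Against wild-type BMDCs of the same treatment, 3 markers were called lower and 0 higher in Irf1-/- BMDCs, both untreated and treated. Over all genes, 1.26% were called higher and 3.52% lower untreated, and 2.65% and 4.91% treated. In Tmem173-/- BMDCs 2 were lower and 0 higher untreated, beside 5.95% and 5.04% over all genes. Treated, 3 were lower and 1 higher there, beside 13.5% and 12.9%. In Irf3/7-/- BMDCs 0 were called untreated, beside 1.17% higher and 0.863% lower over all genes. Treated, 1 was higher and 1 lower there, beside 4.61% and 2.69%. The part of these differences in the results was not tested.

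Markers of other cells differed between the cultures. The neutrophil list, of which 9 of 10 genes were in the table, summed to 4092 and 1914 FPKM in untreated and treated wild-type BMDCs and to 20047 and 14564 FPKM in Tmem173-/- BMDCs, mostly S100a8 and S100a9. The FPKM of S100a8 lies above its own interval in the table (10351 FPKM with 5199 to 10137 in untreated Tmem173-/- BMDCs), so these sums are uncertain. The same sums were 2583 and 1431 FPKM in Irf1-/- and 2324 and 1456 FPKM in Irf3/7-/- BMDCs. Against the wild type of the same treatment, untreated Tmem173-/- BMDCs had 7 of the 9 genes called higher and 1 lower. The lower one was Cxcr2 (15.4 against 72.4 FPKM). Treated Tmem173-/- BMDCs had 8 higher and 0 lower, treated Irf1-/- BMDCs 3 and 3, and treated Irf3/7-/- BMDCs 2 and 2. Untreated Irf1-/- and Irf3/7-/- BMDCs each had 1 higher and 1 lower. The shares over all genes in these comparisons are those given above with the dendritic cell markers. The 10 T and NK cell genes summed to 403 and 367 FPKM in wild-type, 1.32 and 1.44 FPKM in Tmem173-/-, 10.6 and 17.3 FPKM in Irf1-/-, and 386 and 1022 FPKM in Irf3/7-/- BMDCs. Gzma made up most of the sums in wild-type and Irf3/7-/- BMDCs and was listed at 0 in Tmem173-/- BMDCs. The macrophage list, with 9 of 10 genes in the table, summed to 270 and 310 FPKM in wild-type, 608 and 558 FPKM in Tmem173-/-, 197 and 179 FPKM in Irf1-/-, and 274 and 328 FPKM in Irf3/7-/- BMDCs. Of its 9 genes, 2 were called higher and 4 lower in the wild type after treatment, beside 10.5% and 9.96% over all genes. The list of B cells and plasma cells, in which XBP1 is highly active, had 10 of 11 genes in the table and summed to between 22.1 and 33.3 FPKM, with 3 to 6 genes at or above 1 FPKM. Sdc1 was 12.3 to 21.3 FPKM and Prdm1 1.54 to 8.69 FPKM, the latter called higher in the treated than in the untreated wild type, whereas Mzb1 was at most 0.570 FPKM and Tnfrsf17 at most 0.0816 FPKM. The 10 basophil and mast cell genes summed to 81.4 and 168 FPKM in untreated and treated wild-type and 85.9 and 71.5 FPKM in Tmem173-/- BMDCs. The sums were 80.0 and 165 FPKM in Irf1-/-, and 184 and 288 FPKM in Irf3/7-/- BMDCs. In bulk RNA, fewer cells of a type and less RNA per cell cannot be told apart.

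Hspa5 was the most abundant in every condition, from 324 to 534 FPKM, followed by Xbp1 and Atf4, each between 109 and 205 FPKM. Chac1 was the lowest, and was below 1 FPKM in untreated Irf1-/- BMDCs. From the lowest to the highest condition, the FPKM of Ddit3 differed 5.81-fold, Herpud1 4.72-fold, Chac1 4.63-fold, Trib3 4.42-fold and Ern1 3.13-fold. Xbp1, Dnajb9, Atf4 and Hspa5 stayed within 1.73-fold. The plot of FPKM by genotype and treatment shows these levels.

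**Figure D1:**
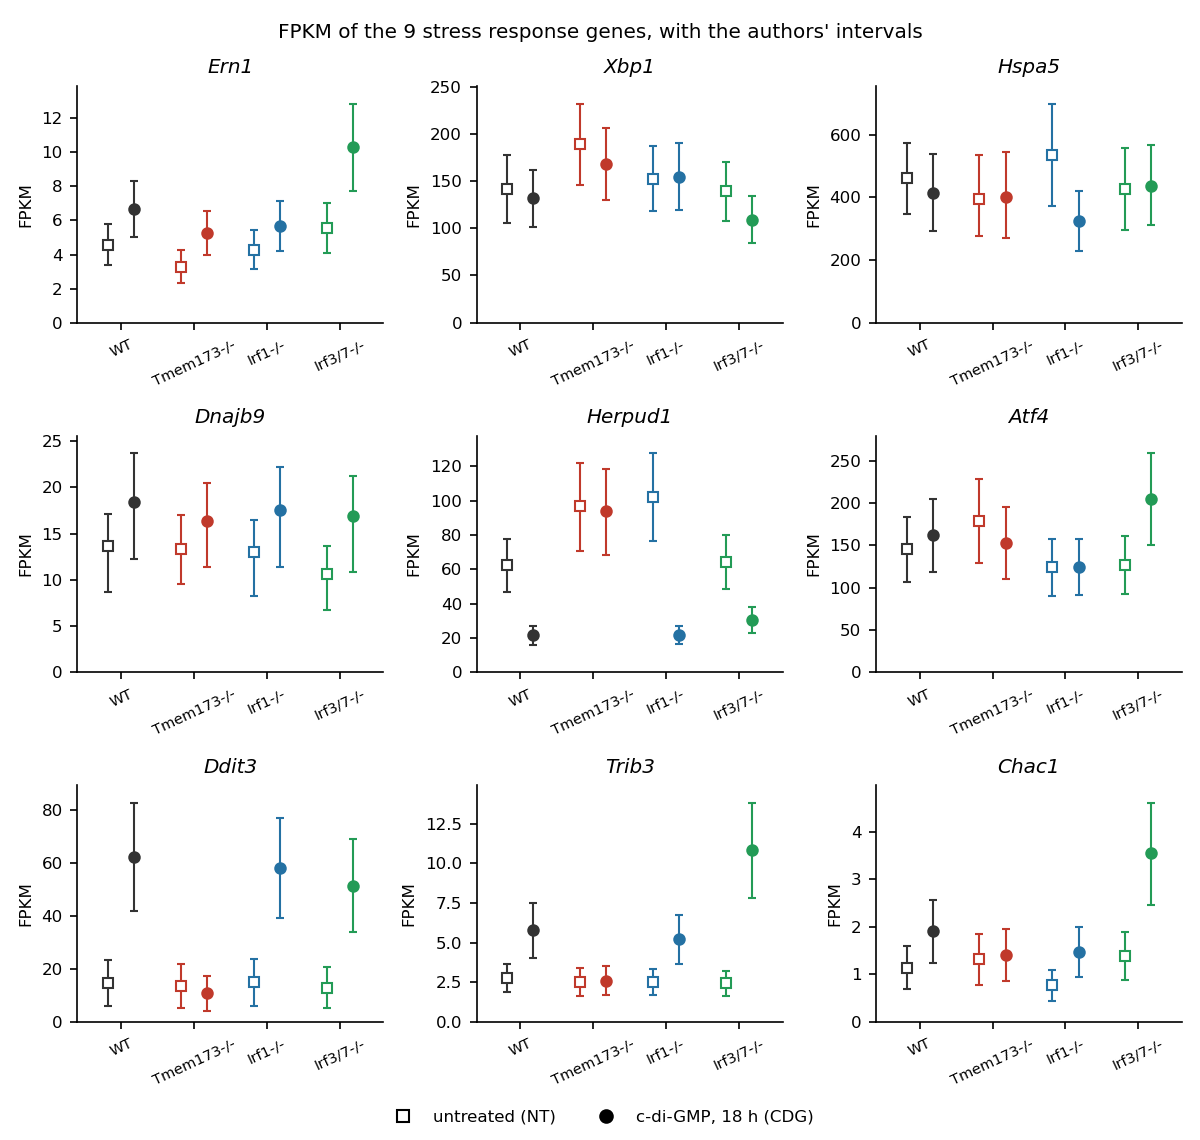
FPKM of the 9 genes (y axis, linear, from 0) in untreated (open squares) and c-di-GMP-treated (filled circles) BMDCs of the 4 genotypes, with bars for the authors' confidence intervals. Treated wild-type, Irf1-/- and Irf3/7-/- BMDCs stand above their untreated partners for Ddit3 and Trib3 and below them for Herpud1, while the intervals of the Tmem173-/- pair overlap for every gene.

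Ern1 encodes the sensor IRE1, a kinase and endoribonuclease of the ER membrane (chr11:106397620-106487796, as the deposited table gives it). It was 4.57 and 6.66 FPKM in untreated and treated wild-type, 3.29 and 5.26 FPKM in Tmem173-/-, 4.29 and 5.66 FPKM in Irf1-/-, and 5.56 and 10.3 FPKM in Irf3/7-/- BMDCs. The treated value was above the untreated value in each of the 4 genotypes, Tmem173-/- included, but the intervals overlapped in 3 of them. In Irf3/7-/- BMDCs the intervals (4.10 to 7.01 and 7.71 to 12.9 FPKM) were apart, and the log2 change of 0.88 lay under the 2-fold limit, so Ern1 was not called.

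Xbp1, whose mRNA is the substrate of IRE1, was 142 and 132 FPKM in untreated and treated wild-type BMDCs (chr11:5520641-5525993). It was 189 and 168 FPKM in Tmem173-/-, 152 and 155 FPKM in Irf1-/-, and 139 and 109 FPKM in Irf3/7-/- BMDCs. No pair of neighbours in this order had intervals apart. Over the 8 conditions Ern1 and Xbp1 ran in opposite directions, with a Pearson r of -0.89 between their log2 levels. This is a description over 8 conditions that share genotypes and normalization.

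Hspa5 encodes BiP, the main HSP70 chaperone of the ER lumen (chr2:34772090-34776529). It was 461 and 413 FPKM in wild-type, 396 and 400 FPKM in Tmem173-/-, 534 and 324 FPKM in Irf1-/-, and 426 and 437 FPKM in Irf3/7-/- BMDCs, untreated and treated. Its widest gap was in Irf1-/- BMDCs, a log2 change of -0.72 with intervals of 371 to 700 and 229 to 421 FPKM that overlapped. The gene whose promoter carries the ERSE was therefore not called in any of the 10 comparisons.

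Dnajb9 encodes ERdj4, a co-chaperone of BiP and a target of XBP1 (chr12:44205897-44210068). It was 13.6 and 18.4 FPKM in wild-type, 13.4 and 16.4 FPKM in Tmem173-/-, 13.0 and 17.6 FPKM in Irf1-/-, and 10.7 and 16.9 FPKM in Irf3/7-/- BMDCs. The treated value was the larger in all 4 genotypes, with log2 changes from 0.29 to 0.66, and the intervals overlapped each time.

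Herpud1 encodes an ER membrane protein of the degradation machinery (chr8:94386500-94395358). It was 62.4 FPKM (47.0 to 77.7) in untreated and 21.6 FPKM (16.1 to 27.1) in treated wild-type BMDCs. In Irf1-/- BMDCs it was 102 and 21.7 FPKM, and in Irf3/7-/- BMDCs 64.1 and 30.5 FPKM. In Tmem173-/- BMDCs it was 96.9 and 94.1 FPKM. The 3 low values were thus the treated samples of the genotypes that have STING, and every other condition was at 62.4 FPKM or more. Along the order of the 8 levels, the only neighbours with intervals apart were untreated wild-type (62.4 FPKM) and treated Irf3/7-/- BMDCs (30.5 FPKM).

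Atf4 encodes the central transcription factor of the integrated stress response, which is controlled to a large part by translation (chr15:80255184-80257541). It was 145 and 162 FPKM in wild-type, 179 and 153 FPKM in Tmem173-/-, 124 and 124 FPKM in Irf1-/-, and 127 and 205 FPKM in Irf3/7-/- BMDCs. The highest value was that of treated Irf3/7-/- BMDCs (151 to 259 FPKM), whose interval overlapped that of the untreated pair (92.8 to 161 FPKM).

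Ddit3 encodes CHOP, a C/EBP-family factor of prolonged ER stress. It was 14.7 FPKM (6.03 to 23.3) in untreated and 62.4 FPKM (42.0 to 82.8) in treated wild-type BMDCs. It was 14.9 and 58.2 FPKM in Irf1-/-, 12.9 and 51.5 FPKM in Irf3/7-/-, and 13.7 and 10.7 FPKM in Tmem173-/- BMDCs. The levels fell into a high set, the 3 treated samples with STING, and a low set of the other 5 conditions, and the only neighbours with intervals apart were treated Irf3/7-/- and untreated Irf1-/- BMDCs between these sets. Its intervals were the widest of the 9 genes, with a mean distance of the bounds from the FPKM of up to 60.5%. The table gives Ddit3 and Mars the same locus (chr10:127290793-127311786), since their annotations overlap by 71 bases on opposite strands, and no source used here gives the strand setting of the Cuffdiff counting. The study's methods name an opposing-strand setting for its separate analysis in SeqMonk. Mars, a tRNA synthetase gene, was not called with c-di-GMP. It was 28.5 and 19.6 FPKM in untreated and treated wild-type BMDCs, and the other genotypes ranged from 19.8 to 27.3 FPKM.

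Trib3 encodes a pseudokinase that is a target of CHOP and dampens ATF4 activity (chr2:152337425-152344060). It was 2.77 FPKM (1.88 to 3.64) in untreated and 5.78 FPKM (4.05 to 7.50) in treated wild-type BMDCs. It was 2.53 and 5.23 FPKM in Irf1-/-, 2.45 and 10.8 FPKM in Irf3/7-/-, and 2.55 and 2.60 FPKM in Tmem173-/- BMDCs. Treated Irf3/7-/- BMDCs (7.83 to 13.8 FPKM) stood apart from treated wild-type BMDCs, the next in order, and treated Irf1-/- BMDCs stood apart from the 5 low conditions.

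Chac1 encodes an enzyme that breaks down glutathione (chr2:119351242-119354327). It was 1.14 and 1.90 FPKM in wild-type, 1.33 and 1.41 FPKM in Tmem173-/-, 0.766 and 1.47 FPKM in Irf1-/-, and 1.39 and 3.54 FPKM in Irf3/7-/- BMDCs. Treated Irf3/7-/- BMDCs had the highest value (2.46 to 4.61 FPKM), and their interval overlapped that of treated wild-type BMDCs (1.24 to 2.56 FPKM). At these levels a pseudocount weighs on the fold change more than for the other members.

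To compare conditions, 0.1 FPKM was added to each value and the log2 difference was taken. A gene was called where the fold was above 2, the authors' intervals did not overlap, at least 1 FPKM was reached in a condition compared and the status was OK in both. In wild-type BMDCs, 2 of the 9 members were called higher and 1 lower with c-di-GMP, where 10.5% of the 11201 genes tested were called higher and 9.96% lower. The log2 change was 2.08 for Ddit3 (4.23-fold), 1.04 for Trib3 (2.05-fold) and -1.53 for Herpud1 (2.88-fold lower). With a pseudocount of 1 FPKM, Trib3 had a log2 change of 0.85 and was not called. The other 6 lay between -0.16 for Hspa5 and 0.69 for Chac1. The median over the members was 0.43, beside 0.00334 over all genes tested.

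In Tmem173-/- BMDCs the members' log2 changes with c-di-GMP lay between -0.35 for Ddit3 and 0.66 for Ern1, with a median of 0.01, and 0 of 9 were called. Of all 10867 genes tested there, 0.046% were called higher and 0.0092% lower. Trib3 changed by 0.03 and Herpud1 by -0.04. For the 3 genes called in wild-type BMDCs, the log2 change within Tmem173-/- BMDCs was -16.6% of that in wild-type for Ddit3, 2.85% for Trib3 and 2.73% for Herpud1.

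In Irf1-/- BMDCs, 2 members were called higher and 1 lower, where 9.67% of 11164 genes were called higher and 7.81% lower. Ddit3 had a log2 change of 1.96, which is 94.1% of the wild-type change, and Trib3 of 1.02, which is 98.4%. Herpud1 fell by 2.22 on the log2 scale, 146% of the wild-type change, from an untreated level that was 1.63-fold that of wild-type BMDCs. The Trib3 call rested on a narrow margin, since median centring of the columns gave 0.98 and a pseudocount of 1 FPKM gave 0.82, neither past the limit. The macrophage list had 6 of 9 genes called lower in untreated and 4 lower in treated Irf1-/- than in wild-type BMDCs. Over all genes, 3.52% were called lower untreated and 4.91% treated. The part of this list was not tested.

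In Irf3/7-/- BMDCs, 3 members were called higher and 1 lower, where 10.2% of 11283 genes were called higher and 7.68% lower. Trib3 had a log2 change of 2.10 (4.29-fold), 203% of the wild-type change, Ddit3 of 1.99 (3.97-fold), 95.6%, and Chac1 of 1.29 (2.45-fold). The Chac1 call was lost with a pseudocount of 1 FPKM (0.93) or a minimum of 5 FPKM. Herpud1 changed by -1.07, 70.2% of the wild-type change. Atf4 was at 0.69, Dnajb9 at 0.66 and Ern1 at 0.88 without a call, and the median over the 9 genes was 0.69, beside 0.00448 over all genes tested. Whether this genotype's change differs from that of wild-type BMDCs could not be tested with 1 value per condition. Beside these values, the T and NK cell list summed to 386 FPKM before and 1022 FPKM after treatment of Irf3/7-/- BMDCs, with 8 of 10 genes at or above 1 FPKM after it. The 10 basophil and mast cell genes summed to 184 and 288 FPKM, beside 81.4 and 168 FPKM in wild-type BMDCs. In untreated Irf3/7-/- against untreated wild-type BMDCs, 6 of 9 tested were called higher and 0 lower, beside 1.17% and 0.863% over all genes. Treated, 8 of 9 were higher and 1 lower, beside 4.61% and 2.69%. The lower one was Hdc (17.4 against 79.1 FPKM). The part of these lists in the result was not tested.

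**Figure D2:**
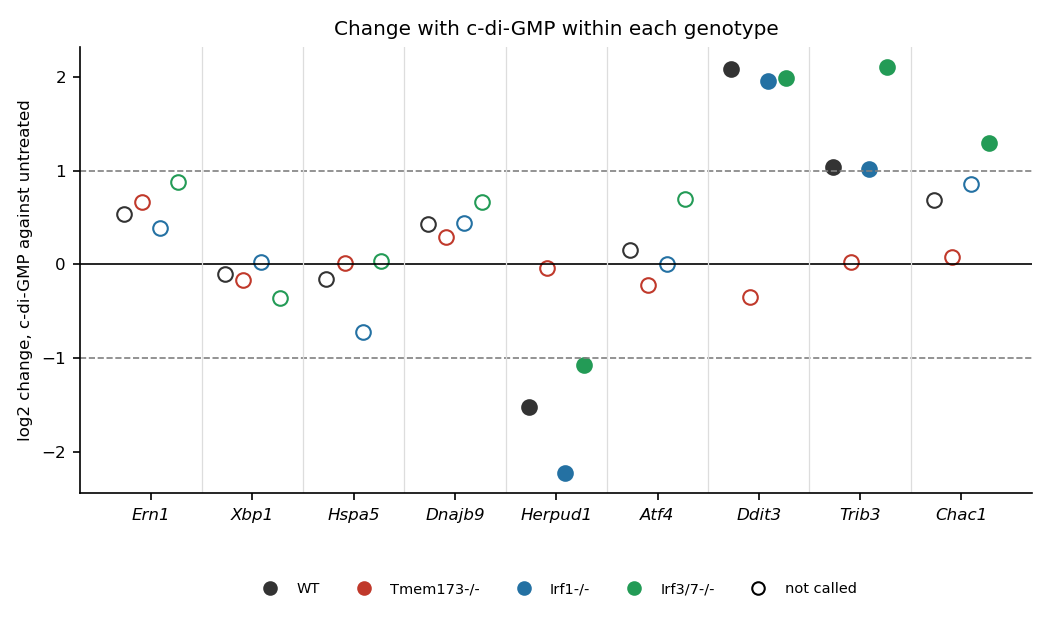
Log2 change of each gene with c-di-GMP (y axis, treated against untreated, on log2 of FPKM plus 0.1) in WT, Tmem173-/-, Irf1-/- and Irf3/7-/- BMDCs (colours). Filled points are called, open points are not, and dashed lines mark 2-fold. Ddit3 lies between 1.96 and 2.08 in the 3 genotypes with STING, Herpud1 between -2.22 and -1.07, and the 9 points of Tmem173-/- BMDCs are open and between -0.35 and 0.66.

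The treated knockouts were then set against treated wild-type BMDCs, which all 3 of these comparisons share. In treated Tmem173-/- BMDCs, Ddit3 was lower by a log2 difference of -2.53 and Trib3 by -1.12, and Herpud1 was higher by 2.12. Thus 1 member was called higher and 2 lower, where 12.9% of 11318 genes were called higher and 13.5% lower. The Trib3 difference was -0.91, and not called, with a pseudocount of 1 FPKM. The other members lay between -0.41 for Chac1 and 0.35 for Xbp1. The neutrophil list summed to 14564 FPKM in treated Tmem173-/- against 1914 FPKM in treated wild-type BMDCs, the T and NK cell list to 1.44 against 367 FPKM, and the macrophage list to 558 against 310 FPKM with 5 of 9 genes called higher and 1 lower. Their part in these differences was not tested. Genotype and these marker sums differ together between the compared cultures and cannot be told apart here. Within the Tmem173-/- cultures, the intervals of Ddit3, Trib3 and Herpud1 overlapped between untreated and treated cells, where 0.046% of all genes were called higher and 0.0092% lower.

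No member was called in treated Irf1-/- against treated wild-type BMDCs, a comparison with 2.65% of 11079 genes called higher and 4.91% lower. The differences lay between -0.38 for Atf4 and 0.23 for Xbp1, and that of Herpud1 was 0.01. Treated Irf3/7-/- BMDCs also gave no called member, where 4.61% of 11209 genes were called higher and 2.69% lower. Trib3 was closest to a call, with a log2 difference of 0.89 and intervals apart (7.83 to 13.8 against 4.05 to 7.50 FPKM). Chac1 was at 0.86, Ern1 at 0.62, Herpud1 at 0.49 and Atf4 at 0.34, and Ddit3 at -0.28, all with overlapping intervals. The T and NK cell list summed to 1022 FPKM here against 367 FPKM in treated wild-type BMDCs. The basophil and mast cell list had 8 of 9 genes tested called higher and 1 lower. The part of both lists was not tested.

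Without treatment, no member was called in any knockout against untreated wild-type BMDCs, which these comparisons share. Among all genes tested, 5.04% of 11101 were called higher and 5.95% lower in Tmem173-/- BMDCs. The shares were 1.26% and 3.52% of 11017 genes for Irf1-/-, and 1.17% and 0.863% of 11004 genes for Irf3/7-/-. Herpud1 had the largest differences of the members, 0.71 in Irf1-/- and 0.63 in Tmem173-/- BMDCs, with overlapping intervals. The members' median difference was -0.03 without STING, -0.07 without IRF1 and -0.11 without IRF3 and IRF7.

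The rest of the pathway was read from 6 lists that include the 9 members, and from a list of heat shock proteins outside the ER, described by counts and medians without a test. Among the ER stress sensors and the proteins that process them, 0 of 11 genes tested were called after c-di-GMP in any of the 4 genotypes. Their median log2 changes lay between 0.00360 and 0.15. Over all genes, 10.5% were called higher and 9.96% lower in wild-type BMDCs, and 0.046% and 0.0092% in Tmem173-/- BMDCs. The plot by list and genotype shows every gene.

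**Figure D3:**
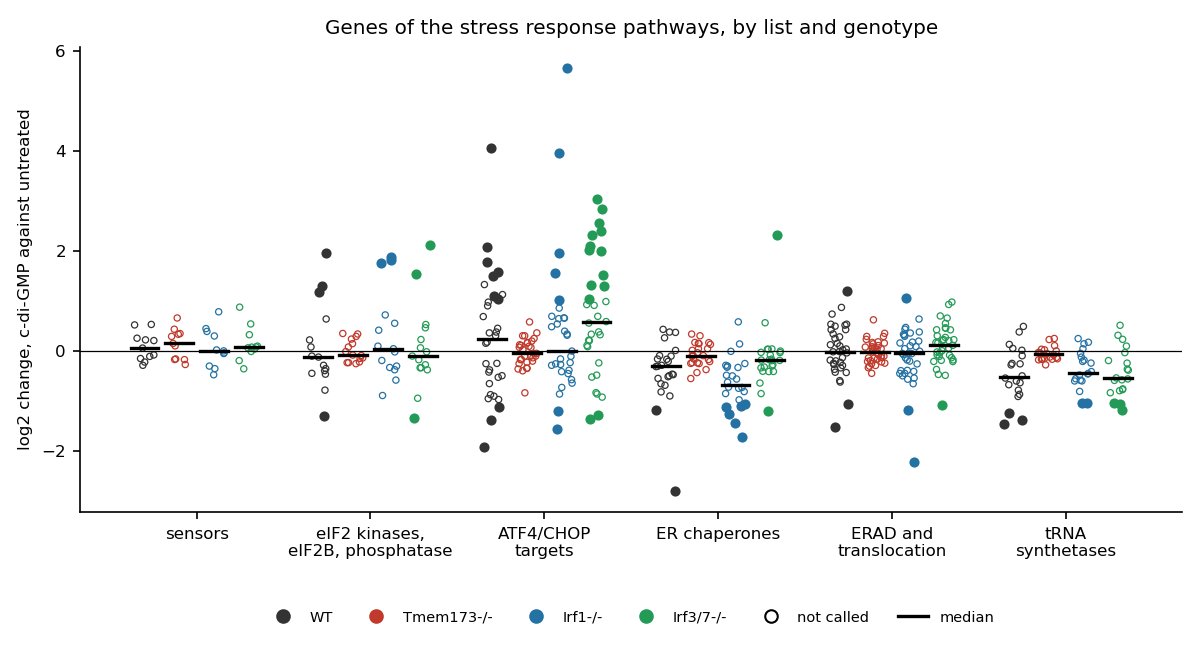
Log2 change with c-di-GMP (y axis) of each gene tested in 6 stress response lists (x axis) for the 4 genotypes (colours), with filled points for called genes, open points for the rest and bars for medians. The sensors hold no filled point, the ATF4 and CHOP list holds 12 genes called higher in Irf3/7-/- BMDCs and 7 in wild-type BMDCs, and Tmem173-/- BMDCs have no filled point in any list.

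Among the eIF2 kinases, eIF2B subunits and phosphatase subunits, 3 of 15 genes were called higher and 1 lower in wild-type BMDCs, beside 10.5% and 9.96% over all genes. Ppp1r15a encodes GADD34, the inducible subunit that directs eIF2 dephosphorylation, and it rose from 12.2 to 47.7 FPKM. It was 14.2 and 48.2 FPKM in Irf1-/-, 13.6 and 59.4 FPKM in Irf3/7-/-, and 9.41 and 8.85 FPKM in Tmem173-/- BMDCs, so its high values were those of the 3 treated conditions in which Ddit3 was high. Eif2ak2, the double-stranded RNA kinase PKR, rose from 23.5 to 53.3 FPKM in wild-type BMDCs and was called higher in Irf1-/- and Irf3/7-/- BMDCs too. Of the subunits of eIF2B, the exchange factor that phosphorylated eIF2 inhibits, Eif2b2 rose from 27.8 to 68.5 FPKM and Eif2b3 fell from 13.5 to 5.47 FPKM in wild-type BMDCs. Eif2b2 rose from 28.2 to 98.9 FPKM in Irf1-/- BMDCs and was 30.1 and 35.3 FPKM, not called, in Irf3/7-/- BMDCs.

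The ATF4 and CHOP list holds transcription factors, amino acid enzymes and transporters, and 7 of its 32 genes tested were called higher and 3 lower in wild-type BMDCs, beside 10.5% and 9.96% over all genes. Its median log2 change was 0.24. Nupr1, a stress-induced chromatin protein, rose from 2.16 to 37.3 FPKM, and Cebpb, a binding partner of CHOP, from 69.8 to 240 FPKM. The FPKM of Cebpb lies above its own interval in the table, which was 37.3 to 66.8 FPKM in untreated and 115 to 207 FPKM in treated wild-type BMDCs, so its values are uncertain. The glutamine transporter gene Slc1a5 fell from 53.1 to 14.0 FPKM. In Irf1-/- BMDCs 5 of 31 genes were called higher and 2 lower, beside 9.67% and 7.81% over all genes. In Tmem173-/- BMDCs 0 of 30 were called in either direction, beside 0.046% and 0.0092% over all genes. Of the 7 genes higher in wild-type BMDCs, 4 were also among the 5 higher in Irf1-/- BMDCs and 6 among the 12 higher in Irf3/7-/- BMDCs.

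In Irf3/7-/- BMDCs, 12 of 33 genes of this list were called higher and 2 lower with c-di-GMP, with a median of 0.59, beside 10.2% called higher and 7.68% lower among all genes tested. Those not named by the rule for genes, and chosen here after their values were seen, include Ddit4, an inhibitor of mTORC1 signalling, which rose from 6.56 to 38.9 FPKM. Ero1l, an oxidase that drives disulfide formation in the ER, rose from 35.9 to 181 FPKM, and the cytokine gene Gdf15 from 0.541 to 4.47 FPKM. Set against the treated wild type, 4 of 33 were called higher and 0 lower, beside 4.61% and 2.69% over all genes, with a median of 0.30. These were Ddit4 (38.9 against 13.0 FPKM), Ero1l (181 against 45.3 FPKM), Gdf15 (4.47 against 1.32 FPKM) and Mthfd1l (11.6 against 5.43 FPKM), of which 0 are members. Both Ddit4 and Ero1l are also known to respond to hypoxia. Treated Irf1-/- BMDCs had 2 genes of the list called higher against treated wild-type BMDCs, Nupr1 (91.6 against 37.3 FPKM) and Slc7a3, and 2 lower, Cebpb (73.5 against 240 FPKM) and Ddit4 (4.94 against 13.0 FPKM). Over all genes, 2.65% were called higher and 4.91% lower in that comparison. The sums of the T and NK cell list given above were 1022 FPKM in treated Irf3/7-/-, 17.3 FPKM in treated Irf1-/- and 367 FPKM in treated wild-type BMDCs. Those of the basophil and mast cell list were 288, 165 and 168 FPKM in the same order. Of its 9 genes tested, 8 were called higher and 1 lower in treated Irf3/7-/- than in treated wild-type BMDCs. The part of both lists in these differences was not tested.

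**Figure D4:**
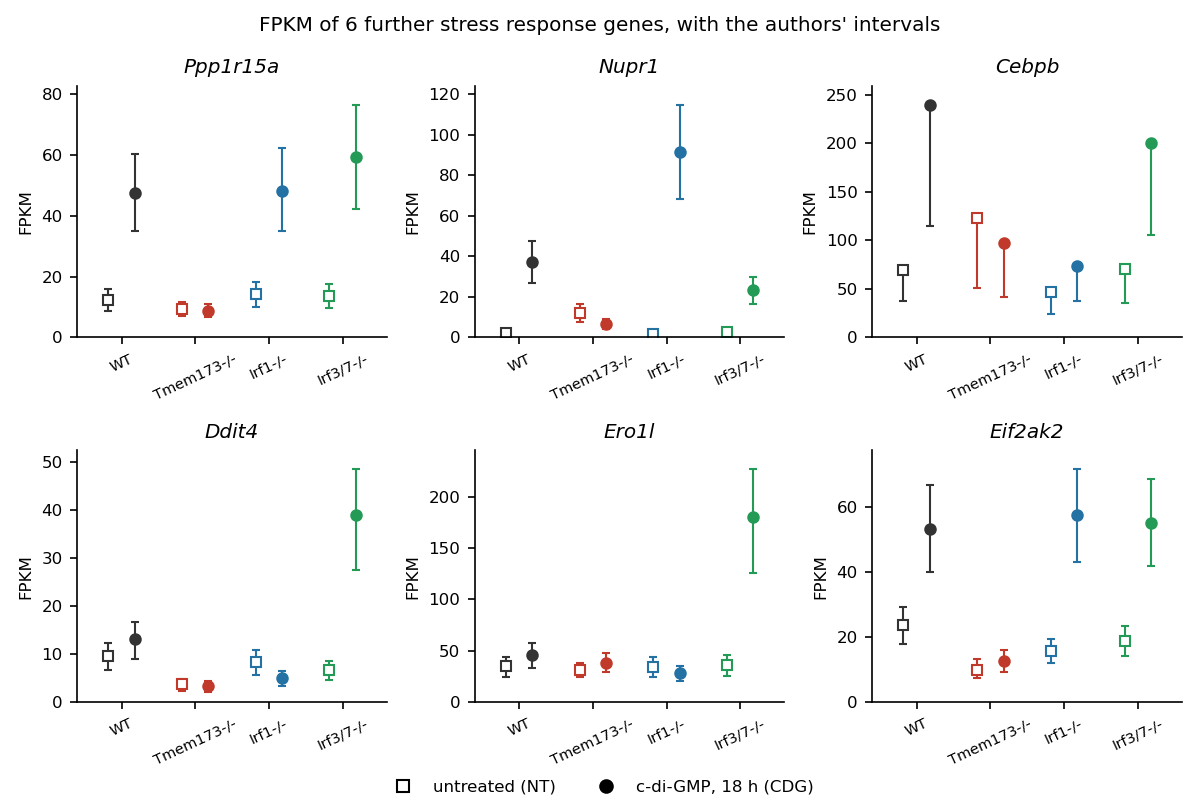
FPKM (y axis, linear, from 0) of 6 further genes of the response in untreated (open squares) and treated (filled circles) BMDCs of the 4 genotypes, with the authors' intervals. Ppp1r15a and Eif2ak2 are high in the 3 treated conditions with STING, and Nupr1 is highest in treated Irf1-/- BMDCs at 91.6 FPKM. Ddit4 and Ero1l, chosen after their values were seen, are high in treated Irf3/7-/- BMDCs alone among the 8 conditions. The FPKM of Cebpb lies above its own interval in the deposited table. Its bars therefore run from the lower bound to the point, and its upper bounds are not drawn.

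Chaperones and foldases of the ER lumen, the group to which Hspa5 belongs, had 0 of 24 genes called higher and 2 lower in wild-type BMDCs, where 9.96% of all genes were called lower. The median log2 change was -0.31. Fkbp11, a peptidyl-prolyl isomerase, fell from 7.41 to 0.983 FPKM and Sdf2l1, a partner of BiP, from 149 to 65.5 FPKM. In Irf1-/- BMDCs 6 of the 24 fell and 0 rose, where 7.81% of all genes tested were called lower and 9.67% higher. The median was -0.67 beside 0.00158 over all genes tested. The 6 were Fkbp11, Sdf2l1, Creld2, Manf, Pdia6 and P4hb, of which the last 4 are named after their values were seen, and P4hb, a protein disulfide isomerase, fell from 516 to 249 FPKM. The median was -0.18 in Irf3/7-/- BMDCs, with Ero1l called higher and Fkbp11 lower, beside 10.2% and 7.68% over all genes. It was -0.09 in Tmem173-/- BMDCs with none of 24 called, beside 0.046% and 0.0092% over all genes. Against treated wild-type BMDCs, 0 of 24 were called in treated Irf1-/- BMDCs, beside 2.65% higher and 4.91% lower over all genes, with a median of -0.23.

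Of the genes of ER-associated degradation and translocation, 1 of 35 was called higher and 2 lower in wild-type BMDCs, both under the 10.5% and 9.96% of all genes, with a median of -0.01. Sec11c, a subunit of the signal peptidase, rose from 107 to 245 FPKM, whereas Spcs3 of the same complex fell from 54.6 to 26.3 FPKM, and the other gene that fell was Herpud1. In Irf3/7-/- BMDCs Herpud1 was the only gene of the list called, where 10.2% of all genes were called higher and 7.68% lower.

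Cytosolic aminoacyl-tRNA synthetases, many of which are known ATF4 targets, had 0 of 20 genes called higher and 3 lower in wild-type BMDCs, where 9.96% of all genes were called lower, with a median of -0.52. Vars fell from 36.2 to 13.2 FPKM, Iars from 33.0 to 12.6 FPKM and Farsb from 31.4 to 13.3 FPKM. The medians were -0.43 in Irf1-/- and -0.55 in Irf3/7-/- BMDCs, with 2 and 3 genes lower, and -0.07 in Tmem173-/- BMDCs with none called. The shares of all genes called lower were 7.81% in Irf1-/-, 7.68% in Irf3/7-/- and 0.0092% in Tmem173-/- BMDCs. The medians of all genes tested lay between -0.02 and 0.00448 in these comparisons.

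For each member, the genes with the most similar log2 levels over the 8 conditions were sought among 9269 genes. The values are Pearson r, a description without a test over conditions that share genotypes. Hspa5 was most like Creld2 (0.90) and Hyou1 (0.89), both of the ER chaperone list, and Mus81 (0.88). Ddit3 was most like Cacnb3 (0.997), Zfand3 and E130311K13Rik. Trib3 was most like Spata6 (0.989), Ifnb1 (0.987), which encodes interferon beta, and Gmeb2. Herpud1 was most like Mmgt1 (0.988), Cd24a (0.986) and Pigx. The leading genes were Dnajc24 for Xbp1 (0.992), Pxmp2 for Atf4 (0.958), C2cd3 for Ern1 (0.983), Zfp52 for Dnajb9 (0.980) and Slc9a8 for Chac1 (0.978). Among the members themselves, Ddit3 and Herpud1 had an r of -0.95, Ddit3 and Trib3 of 0.89, and Chac1 and Trib3 of 0.87.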

How the data were processed

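Stranded mRNA libraries of 16 BMDC samples were sequenced, and the authors ran Cuffdiff (version 1.06 per the submitters' processing notes), which combined replicates. The deposited table holds FPKM and the bounds of its confidence interval per condition. For this table, the aligner, annotation and Cuffdiff strand setting are not given in the sources used here. As to the build, the notes name mm9, but 21286 of 21522 genes matched by symbol, and all 9 members, overlapped the gene of that name in GRCm38, so loci are read in GRCm38. A further knockout's 4 columns were not used. The column of treated Tmem173-/- BMDCs is named without a clear treatment suffix and was mapped through its name and the study's tabulated comparison. Depth is unknown from FPKM. As a measure of precision, bounds lay a median of 25.2% to 25.7% from the FPKM for genes of at least 10 FPKM in every condition, and 22.5% to 60.5% for the members.

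Log2(FPKM + 0.1) was compared in 10 comparisons by the rule in the text. That rule was run on simulated data, with planted changes well past the 2-fold limit and noise drawn from the authors' intervals. The simulation therefore cannot judge calls near 2-fold or the spread between replicates. The labels do not say whether replicates were separate cultures. The members, the 7 pathway lists (160 genes, 159 in the table) and the 7 marker lists were chosen with earlier results of these data known. Genes named by rule were the members, the targeted genes and the 3 most similar genes per member. The rule also took up to 4 called genes per list with the largest change in wild-type BMDCs. Further genes of the pathway and marker lists were named outside this rule. Alternatives were other pseudocounts, filters and fold limits, median centring and the fold alone. Scripts ran under python 3.11.15 with pandas 2.3.3, numpy 2.4.6 and matplotlib 3.10.9.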

Additional observations from a re-analysis of the deposited data

How the results depend on the processing

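Under 8 alternatives, 76 of 80 counts of called members stayed within 1.5 times. That tolerance takes a fall from 3 to 2 as unchanged. Many of the 76 were 0 under both settings, in comparisons without a called member. The log2 values themselves change only with the pseudocount and with median centring. Of 270 log2 changes of single members under these settings, 265 kept their direction and their side of the 2-fold limit, with none reversed. The other 5 were those of Trib3 and Chac1 given below, and members far from the limit count among the 265. With a limit of 4-fold, 1 member was called with c-di-GMP in each of wild-type (Ddit3), Irf1-/- (Herpud1) and Irf3/7-/- BMDCs (Trib3), instead of 3, 3 and 4. With a limit of 1.5-fold, 1 member, Trib3, was called in treated Irf3/7-/- against treated wild-type BMDCs instead of 0, and Ern1 was added in Irf3/7-/- BMDCs with c-di-GMP. These changes follow from the limit itself. A pseudocount of 1 FPKM took Trib3 below 2-fold in wild-type (log2 0.85), Irf1-/- (0.82) and treated Tmem173-/- against treated wild-type BMDCs (-0.91), and Chac1 in Irf3/7-/- BMDCs (0.93). A minimum of 5 FPKM also removed Chac1, and median centring removed Trib3 in Irf1-/- BMDCs (0.98). Centring moved the median of all genes by at most 0.05 on the log2 scale. No paired analysis was possible because the table has 1 value per condition, and leaving out a replicate could not be done for the same reason. With no replicate values, the calls describe these combined samples, and the spread between cultures is not known.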

Other observations

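Heat shock proteins of the cytosol and mitochondria were followed as a group outside the ER. In wild-type BMDCs 2 of 14 genes tested were called higher and 2 lower with c-di-GMP, beside 10.5% and 9.96% over all genes, with a median log2 change of 0.11. The inducible HSP70 genes Hspa1b and Hspa1a rose from 0.302 to 4.33 FPKM and from 0.216 to 2.74 FPKM. These are near-identical copies, so the share of reads given to each is uncertain. The mitochondrial chaperones Hspd1 and Hspa9 fell from 208 to 69.5 FPKM and from 159 to 76.9 FPKM. Hspa1a and Hspa1b were also called higher in Irf1-/- and Irf3/7-/- BMDCs, and 0 of 12 genes of the list were called in Tmem173-/- BMDCs, where Hspa1b was 0.258 and 0.189 FPKM. Of all genes tested in Tmem173-/- BMDCs, 0.046% were called higher and 0.0092% lower. Hspd1 fell in Irf1-/- BMDCs (222 to 109 FPKM) and in Irf3/7-/- BMDCs (223 to 76.1 FPKM).

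The tRNA synthetase Wars was called lower in Tmem173-/- than in wild-type BMDCs, at 31.7 against 71.1 FPKM untreated and 30.9 against 77.9 FPKM treated, and is named after its values were seen. Eif2ak2 was 9.81 FPKM in untreated Tmem173-/- against 23.5 FPKM in untreated wild-type BMDCs, a difference present without c-di-GMP. Nupr1 was 12.2 FPKM in untreated Tmem173-/- against 2.16 FPKM in untreated wild-type BMDCs, and 6.79 FPKM after treatment. The neutrophil list summed to 20047 FPKM in untreated Tmem173-/- and 4092 FPKM in untreated wild-type BMDCs, carried mostly by S100a8 and S100a9, and its part in these differences was not tested.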
